A study of Mus musculus with 10 samples.

Results

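The genes described here are the markers of the liver's blood and lymph vessel lining, 42 endothelial genes of 22180 genes measured. The list was given by name and holds 14 genes of endothelium in general, 5 arterial, 5 venous and capillary, 12 sinusoidal and 6 lymphatic genes, and all 42 were measured, each by the only probe set that carries its symbol alone. The study cut portal tracts by laser from frozen liver sections of mice aged 1 week, pooled 12 to 20 tracts per replicate and hybridized the RNA to single-colour arrays, 5 for controls and 5 for Jag1+/-Rfng+/- mice. Controls are labelled with the strain C57Bl/6J, and no strain is given for the Jag1+/-Rfng+/- mice, which carry 1 mutant copy of Jag1, a Notch ligand gene, and 1 of Rfng, which encodes the Notch-modifying enzyme Radical fringe. The labels name no treatment and do not say which genotypes the controls hold, what kind of mutant alleles were used or whether each sample is a separate mouse, so a p-value here reflects the spread among these samples. The study's stated interest is remodelling and differentiation programmes of the tracts at this age.

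Endothelial cells line every vessel, and those of arteries, veins, sinusoids and lymphatics carry different sets of genes on top of a shared programme of junction proteins, growth factor receptors and transcription factors. In the portal tract a vein, an artery and lymphatics run beside the bile duct, while the sinusoids, the fenestrated capillaries that clear waste from blood, begin at its edge. Notch signalling is known for setting arterial identity, with ephrin-B2, encoded by Efnb2, on the arterial side and its receptor, encoded by Ephb4, on the venous side. Jag1 is known to be made in the portal vein mesenchyme and in vessel walls, and loss of its function affects bile ducts and arteries.

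All values are log2 expression, on which a difference of 1 is a factor of 2, and levels are compared only within a gene. Pairs of means are given as mean ± SD, controls first and Jag1+/-Rfng+/- second, with n = 5 arrays each. No detection call was at hand. As a guide to the level of unexpressed genes, 1394 olfactory and vomeronasal receptor genes had a median of 1.83 and a 95th percentile of 3.20 over the 10 arrays. In this guide 38 of the 42 genes read above 3.20 on every array, and the other 4, Mmrn1, Pdpn, Foxc2 and Nts, are all lymphatic. The array medians lay between 3.22 and 3.30. Jag1+/-Rfng+/- replicate 5, whose sample name carries the suffix excl, correlated with the other arrays at 0.956 to 0.963, against at least 0.969 among the other 9, and was kept. The targeted genes were lower on average in the Jag1+/-Rfng+/- arrays. Jag1 averaged 5.72 ± 0.93 against 4.39 ± 0.63 and Rfng averaged 4.82 ± 0.20 against 4.36 ± 0.16, with overlapping groups for Jag1 and no overlap for Rfng, and neither passed the threshold of 0.05 (limma adjusted p = 0.559 and 0.416).

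None of the 42 genes passed an adjusted p of 0.05 in the limma fit over all genes, in which 2 of 22180 did (0.00902%). At an unadjusted p under 0.05, which is used here only to describe, 5 members read lower, or 11.9% against 3.79% of all genes. They were Sox7, Efnb2, Adgrg6, Sema3d and Pdpn, of which Pdpn read near the level of unexpressed genes. On the other side 2 members read higher, Stab2 and Ptprb, or 4.76% against 2.98% of all genes, and in either direction 6.76% of all genes had such a p. The groups did not overlap for 2 members, Sox7 lower and Stab2 higher, against 1.38% of all genes in either direction. Of all genes 9324 averaged within the range of receptor genes. In a fit of only the 12856 genes above it, 4.76% read lower and 2.82% higher at an unadjusted p under 0.05. Of these 12856 genes 1.06% were lower and 0.638% higher with no overlap. In all, 20 of the 42 read lower and 22 higher, close to the 51.5% of all genes that read lower, and their median difference was 0.01 (-0.06 to 0.04 with single arrays left out) against -0.01 over all genes. The larger differences lay in single genes. The members were chosen with earlier results of these data known, so their counts are not independent of those results. The count of 2 members higher became 1 without control replicates 1 or 4 or Jag1+/-Rfng+/- replicates 3 or 4. The share over all genes was then 2.45% to 2.86%. The count became 4 without control replicate 2, against 2.86% of all genes, and 5 without Jag1+/-Rfng+/- replicate 5, against 3.17%. In these pooled pieces of tissue, fewer cells of a type and less RNA per cell cannot be told apart.

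**Figure D1:**
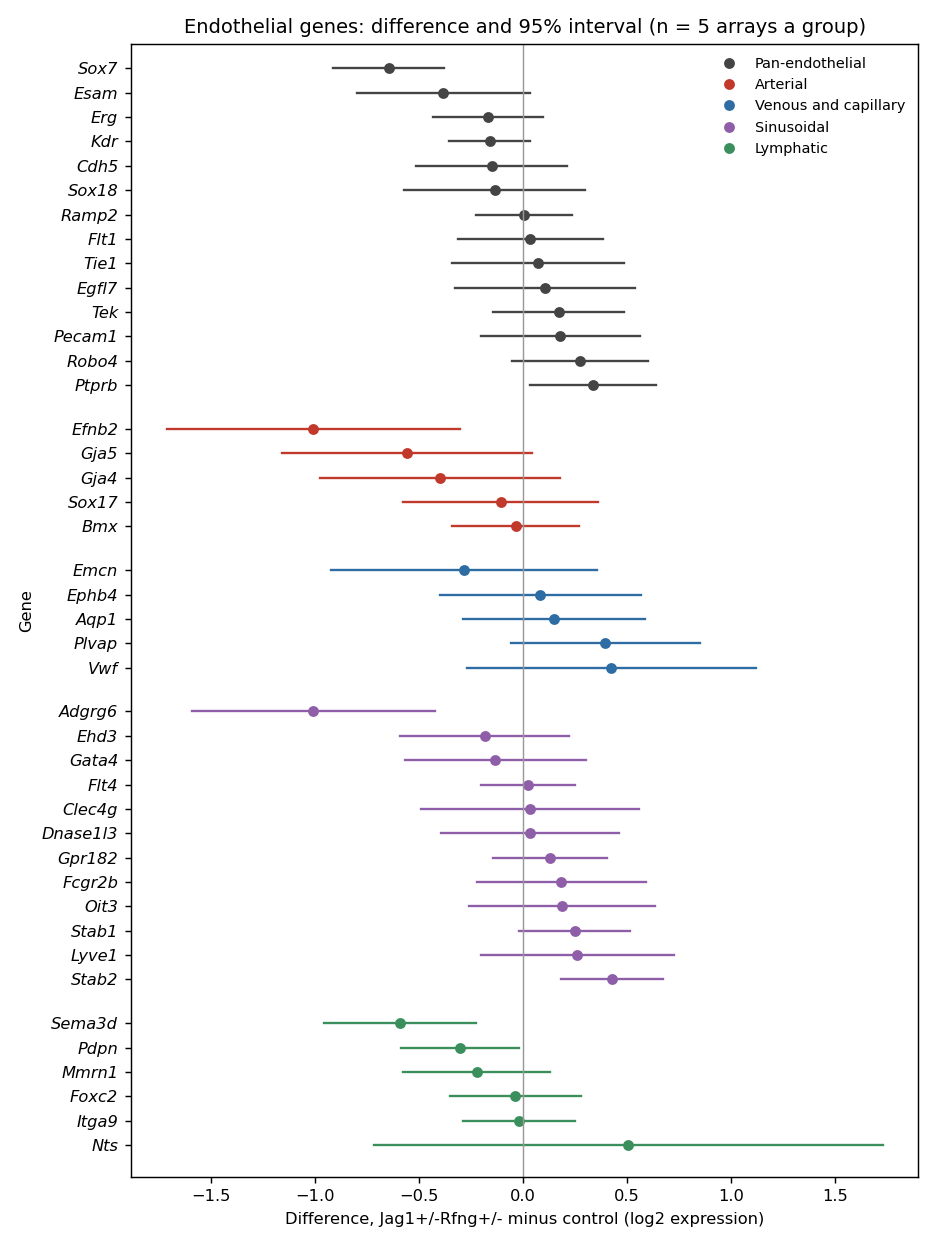
Difference between the group means for each of the 42 genes (Jag1+/-Rfng+/- minus control, log2, n = 5 arrays each), with its 95% interval from the limma fit, unadjusted for the number of genes, and genes grouped by vessel type. Most intervals cross 0, those of Sox7, Efnb2, Adgrg6, Sema3d and Pdpn lie below it, and those of Stab2 and Ptprb above it.

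Promoter windows of RefSeq in the build GRCm38.p6 were at hand for 26 of the 42 genes. The windows of the 4 members of lowest p that have one are shown, since they carry differences described further on, as the 250 bases before the annotated start, 5′ to 3′ on the gene's strand, with each CpG in capitals.
Stab2, chr10:87007943-87008192, minus strand: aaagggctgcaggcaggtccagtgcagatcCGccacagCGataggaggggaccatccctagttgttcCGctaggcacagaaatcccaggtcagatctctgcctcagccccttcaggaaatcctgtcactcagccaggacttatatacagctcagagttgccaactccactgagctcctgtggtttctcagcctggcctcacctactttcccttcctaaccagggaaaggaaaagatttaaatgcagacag
Adgrg6, chr10:14545037-14545286, minus strand: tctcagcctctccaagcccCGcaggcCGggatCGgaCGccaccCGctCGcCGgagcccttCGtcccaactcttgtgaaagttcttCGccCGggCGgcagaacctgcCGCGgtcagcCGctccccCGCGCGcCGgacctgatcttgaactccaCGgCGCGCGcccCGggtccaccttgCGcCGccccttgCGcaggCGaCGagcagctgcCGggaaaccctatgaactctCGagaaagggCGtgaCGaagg
Sema3d, chr5:12382916-12383165, plus strand: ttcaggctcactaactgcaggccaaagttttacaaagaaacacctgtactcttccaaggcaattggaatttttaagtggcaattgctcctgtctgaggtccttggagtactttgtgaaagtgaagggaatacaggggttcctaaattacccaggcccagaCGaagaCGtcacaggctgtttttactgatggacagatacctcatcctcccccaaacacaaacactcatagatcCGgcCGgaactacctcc
Efnb2, chr8:8661243-8661492, minus strand: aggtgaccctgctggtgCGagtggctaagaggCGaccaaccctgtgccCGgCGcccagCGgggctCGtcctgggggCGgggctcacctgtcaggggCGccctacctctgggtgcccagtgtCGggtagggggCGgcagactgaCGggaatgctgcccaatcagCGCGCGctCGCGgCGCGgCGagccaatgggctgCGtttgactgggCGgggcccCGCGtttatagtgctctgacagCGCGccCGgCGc
The windows of Efnb2 and Adgrg6 are rich in CpG, with 27 and 32 of them and a GC content of 72.0% and 69.6%. At least 27 CpG are held by 8.56% of all 32851 windows and at least 32 by 4.58%, and the median is 6. Stab2 and Sema3d have 3 and 4 CpG and a GC content of 53.2% and 46.8%, near the median of 52.4%. These 4 motifs were searched on both strands: TGGGAA of the Notch effector RBPJ, GGAAGT of ETS factors, ACAATG of SOX factors and AACAGGAA, where FOX and ETS factors can bind together. The first or the last of these can overlap GGAAGT by the shared letters GGAA. None of the 4 windows shown holds any of them. Over the 26 genes TGGGAA was found in 8, GGAAGT in 7, ACAATG in 3 and AACAGGAA in 2, and over all windows they occur in 21.6%, 19.7%, 10.7% and 2.25%. A gene was counted if any of its windows held the motif, and the 26 genes have 30 windows. The counts of genes and the shares of windows are therefore not measured alike. Kdr, Tie1, Egfl7 and Mmrn1 hold both TGGGAA and GGAAGT.

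The genes of endothelium in general read above the receptor level on every array and lay near the same level in both groups. Their 14 differences had a median of 0.02 (6 lower, 8 higher) and ranged from -0.64 for Sox7 to 0.34 for Ptprb. Pecam1, which encodes an adhesion molecule of endothelial junctions, read 7.24, 7.81, 7.74, 7.19 and 6.84 on control replicates 1 to 5 and 7.45, 7.60, 7.47, 7.77 and 7.42 on Jag1+/-Rfng+/- replicates 1 to 5. Cdh5, which encodes the junction protein VE-cadherin, read 8.34, 8.83, 9.04, 8.49 and 8.49 on control replicates 1 to 5 and 8.56, 8.41, 8.41, 8.92 and 8.14 on Jag1+/-Rfng+/- replicates 1 to 5. For both genes the groups overlapped and no array stood far below the rest. The 95% interval of the difference ran from -0.20 to 0.56 for Pecam1 and from -0.51 to 0.21 for Cdh5. The Pecam1 difference was 0.05 without control replicate 5 and 0.27 and 0.29 without control replicates 3 and 2. The Cdh5 difference was -0.05 without control replicate 3, -0.06 without Jag1+/-Rfng+/- replicate 5 and -0.26 without Jag1+/-Rfng+/- replicate 4.

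Sox7, a transcription factor gene of the SoxF family that acts with Sox17 and Sox18 in vessel development, was the member with the lowest p. It read 4.18, 4.38, 4.08, 4.03 and 4.17 on control replicates 1 to 5 and 3.23, 3.84, 3.47, 3.62 and 3.46 on Jag1+/-Rfng+/- replicates 1 to 5. Every Jag1+/-Rfng+/- array lay below every control, as for 170 of all genes (0.766%), and Sox7 was the only member with this pattern. With 1 array left out, the count of such members was 3 without control replicate 5, where the share over all genes was 1.32%. It was 2 without control replicates 1, 3 or 4 or Jag1+/-Rfng+/- replicates 2, 3, 4 or 5, where that share was 1.06% to 1.39%. The means were 4.17 ± 0.13 against 3.52 ± 0.22, a difference of -0.64 ± 0.12 (SE), 1.56-fold lower (limma adjusted p = 0.176). On Jag1+/-Rfng+/- replicate 1 Sox7 read 3.23, next to the 95th percentile of receptor genes. Leaving out any single array gave differences from -0.72 to -0.57, and the 7 arrays that share a number in their sample names, 3 controls and 4 Jag1+/-Rfng+/-, gave -0.57 (limma adjusted p = 0.794). The other SoxF genes differed less. Sox18 averaged 5.15 ± 0.23 against 5.02 ± 0.44, with a difference of -0.14 (limma adjusted p = 0.921), and its lowest array was Jag1+/-Rfng+/- replicate 2. Sox17 is described with the arterial genes.

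Ptprb encodes the endothelial phosphatase VE-PTP, which acts on VE-cadherin and on the angiopoietin receptor encoded by Tek. It read 7.36, 7.81, 7.70, 7.59 and 7.68 on control replicates 1 to 5 and 7.63, 7.89, 8.22, 8.26 and 7.83 on Jag1+/-Rfng+/- replicates 1 to 5. The 2 highest values were those of Jag1+/-Rfng+/- replicates 3 and 4, and the groups overlapped; the difference was 0.34 ± 0.14 (SE, limma adjusted p = 0.688). Esam, a junction adhesion molecule gene, read 4.80, 4.79, 5.42, 5.58 and 5.10 on control replicates 1 to 5 and 5.11, 4.36, 4.80, 5.00 and 4.51 on Jag1+/-Rfng+/- replicates 1 to 5. Robo4, which encodes a guidance receptor that stabilizes vessels, read 4.29, 5.04, 4.71, 4.57 and 4.43 on control replicates 1 to 5 and 4.67, 4.78, 5.08, 5.12 and 4.78 on Jag1+/-Rfng+/- replicates 1 to 5. Esam differed by -0.38 and Robo4 by 0.27, both within overlapping groups (limma adjusted p = 0.751 and 0.771).

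The receptor genes of the vascular growth factors had intervals that spanned 0. Kdr, the main receptor gene for VEGF-A signalling, averaged 6.89 ± 0.07 against 6.73 ± 0.11 (difference -0.16), and Flt1, which encodes a decoy receptor for the same factor, averaged 5.77 ± 0.19 against 5.81 ± 0.33 (difference 0.03). Tek averaged 5.96 ± 0.21 against 6.13 ± 0.26 (difference 0.17), and its partner receptor gene Tie1 5.68 ± 0.42 against 5.75 ± 0.22 (difference 0.07). The 95% intervals of Kdr and Flt1 ran from -0.35 to 0.03 and from -0.31 to 0.38. Among the remaining genes of this kind, Erg, an endothelial ETS transcription factor gene, differed by -0.17. Egfl7, which encodes a secreted endothelial protein, differed by 0.11, and Ramp2, a partner of the adrenomedullin receptor, by 0.0026. The limma adjusted p of these 7 genes lay between 0.775 and 0.998.

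The arterial genes all read lower in the Jag1+/-Rfng+/- arrays, with a median difference of -0.40 over 5 genes, and only Efnb2 had an unadjusted p under 0.05. Over all genes 51.5% read lower, and 3.79% did so at such a p. Efnb2 read 5.43, 5.81, 6.60, 4.47 and 4.84 on control replicates 1 to 5 and 4.41, 4.61, 4.24, 4.65 and 4.20 on Jag1+/-Rfng+/- replicates 1 to 5. Controls 1, 2 and 3 lay above all Jag1+/-Rfng+/- arrays, control replicate 5 lay just above them too, and control replicate 4 lay among them. The means were 5.43 ± 0.83 against 4.42 ± 0.20, a difference of -1.01 ± 0.32 (SE), 2.01-fold lower (limma adjusted p = 0.565). Without control replicate 3, the highest array, the difference was -0.71, and within the 7 arrays with the shared number it was -1.20 (limma adjusted p = 0.849).

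The gap junction genes Gja5 and Gja4, whose products couple arterial endothelial cells, leaned the same way with more overlap. Gja5 read 5.37, 5.91, 6.32, 5.50 and 4.87 on control replicates 1 to 5 and 4.21, 5.28, 5.20, 5.22 and 5.28 on Jag1+/-Rfng+/- replicates 1 to 5. Its difference of -0.56 ± 0.28 (SE, limma adjusted p = 0.748) held Jag1+/-Rfng+/- replicate 1, the lowest array, and control replicate 3, the highest. It was -0.35 without that Jag1+/-Rfng+/- array and -0.37 without control replicate 3. Gja4 read 5.10, 5.19, 6.23, 4.73 and 4.86 on control replicates 1 to 5 and 4.86, 4.26, 4.76, 5.23 and 4.99 on Jag1+/-Rfng+/- replicates 1 to 5, with control replicate 3 far above the rest. Its difference was -0.40 ± 0.27 (SE, limma adjusted p = 0.825), and -0.15 without control replicate 3, which also brought the median of the 5 arterial genes to -0.15. Without Jag1+/-Rfng+/- replicate 2 that median was -0.26.

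Sox17, the SoxF gene tied to arterial fate, read 5.10, 5.70, 5.46, 4.59 and 4.44 on control replicates 1 to 5 and 4.92, 4.91, 4.93, 5.07 and 4.91 on Jag1+/-Rfng+/- replicates 1 to 5. Controls spread over more than 1 log2 unit while the Jag1+/-Rfng+/- arrays lay within 4.91 to 5.07, and the means, 5.06 ± 0.54 against 4.95 ± 0.07, were close (difference -0.11, limma adjusted p = 0.947). Bmx, which encodes a tyrosine kinase of arterial endothelium, averaged 3.53 ± 0.26 against 3.49 ± 0.19 with a difference of -0.04 (limma adjusted p = 0.977).

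**Figure D2:**
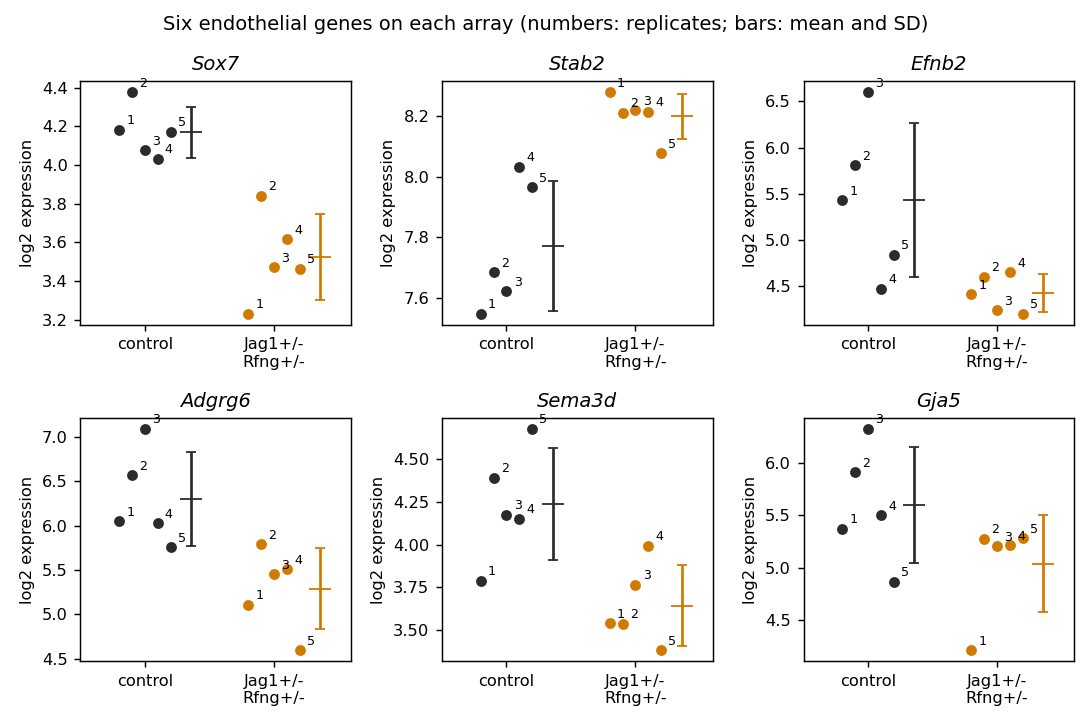
log2 expression of 6 endothelial genes on each of the 10 arrays (points, with the replicate number), beside the mean and SD of each group (n = 5). For Sox7 and Stab2 the groups do not overlap, for Efnb2, Adgrg6 and Gja5 the highest value is that of control replicate 3, and Gja5 on Jag1+/-Rfng+/- replicate 1 lies apart at 4.21.

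The spread of the arterial genes among controls went with that of the vessel wall and stroma markers. Relative to the control mean, the 5 arterial genes averaged 0.33 and 0.69 on control replicates 2 and 3, -0.46 and -0.51 on control replicates 4 and 5, and -0.54 to -0.21 on the Jag1+/-Rfng+/- arrays. The 16 genes of smooth muscle and mural cells averaged 0.29 and 0.43 on control replicates 2 and 3 and -0.51 and -0.20 on control replicates 4 and 5. The 19 portal fibroblast genes measured averaged 0.32 and 0.44, then -0.69 and -0.12, on the same arrays. Both lists read lower in the Jag1+/-Rfng+/- arrays, 14 of 16 and 16 of 19 genes, against 51.5% of all genes. In both, 0 genes passed the adjusted threshold. At an unadjusted p under 0.05, 4 of the 16 and 9 of the 19 read lower, against 3.79% of all genes, and 0 higher. The median differences of these lists were -0.22 and -0.78. Of 9 bile duct genes 8 read lower as well, with a median of -0.75 and 0 past the adjusted threshold. At an unadjusted p under 0.05, 7 of the 9 read lower and 1 higher, against 3.79% and 2.98% of all genes. All these lists were chosen with earlier results of these data known, so the counts are not independent of those results. The bile duct list averaged 0.26 and 0.58 on control replicates 2 and 3 and -0.33 and -0.43 on control replicates 4 and 5. On the Jag1+/-Rfng+/- arrays it averaged -1.13 to -0.53. The mean level of the smooth muscle list ranged from 4.70 to 5.63 in controls and from 4.42 to 5.65 in Jag1+/-Rfng+/-, and 2 of its genes, Higd1b and Synpo2, read within the range of receptor genes. The fibroblast list ranged from 5.91 to 7.03 and from 5.19 to 6.63, with 1 gene, Clec3b, in that range. On Jag1+/-Rfng+/- replicate 4 the smooth muscle list lay at 0.44, above every control, and the fibroblast list at 0.03, while Efnb2 read 4.65 there, below 4 of the 5 controls. Among the Jag1+/-Rfng+/- arrays this was the highest for Efnb2 and for the 5 arterial genes, which averaged -0.21 there. The bile duct list lay at -0.60 on this array. The part of these cells in the arterial differences was not tested.

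The targeted ligand gene was high and low on the same controls, with Jag1 at 6.59 and 6.57 on control replicates 2 and 3 and at 4.59 and 4.90 on control replicates 4 and 5. Efnb2 on these arrays read 5.81, 6.60, 4.47 and 4.84. On control replicate 1 Jag1 read 5.95 and Efnb2 5.43. On the Jag1+/-Rfng+/- arrays Jag1 ranged from 3.68 to 5.06, a range that holds control replicates 4 and 5. The smooth muscle, fibroblast and bile duct lists were also high on control replicates 2 and 3 and low on 4 and 5. A link between Jag1 and Efnb2 was not tested.

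Adgrg6, grouped with the sinusoidal genes in the list used here, encodes an adhesion G protein-coupled receptor. It read 6.05, 6.57, 7.09, 6.03 and 5.76 on control replicates 1 to 5 and 5.11, 5.79, 5.45, 5.51 and 4.60 on Jag1+/-Rfng+/- replicates 1 to 5. Like Efnb2 and the stroma and duct lists above, whose part was not tested for this gene either, it was highest on control replicates 3 and 2, and Jag1+/-Rfng+/- replicate 2, the highest of its group, lay just above control replicate 5. The means were 6.30 ± 0.53 against 5.29 ± 0.46, a difference of -1.01 ± 0.27 (SE), 2.01-fold lower (limma adjusted p = 0.423). The difference lay between -1.14 and -0.81 when single arrays were left out, and was -1.23 within the 7 arrays with the shared number (limma adjusted p = 0.794).

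The sinusoidal genes read above the receptor level on every array of both groups and leaned slightly higher in Jag1+/-Rfng+/-. Of the 12 genes in the group 9 read higher and 3 lower, with a median difference of 0.08 and only Stab2 and Adgrg6 at an unadjusted p under 0.05, in opposite directions. Over all genes 51.5% read lower, and at such a p 2.98% read higher and 3.79% lower. Stab2, which encodes the scavenger receptor that clears hyaluronan in the sinusoids, read 7.55, 7.69, 7.62, 8.03 and 7.97 on control replicates 1 to 5 and 8.28, 8.21, 8.22, 8.21 and 8.08 on Jag1+/-Rfng+/- replicates 1 to 5. All 5 Jag1+/-Rfng+/- arrays lay above all controls, as for 137 of all genes (0.618%), although the lowest of them, replicate 5, lay only just above control replicate 4. Among controls Stab2 was highest on replicates 4 and 5, where the smooth muscle, fibroblast and bile duct lists were low. The part of tract content in the Stab2 values was not tested. The means were 7.77 ± 0.21 against 8.20 ± 0.07, a difference of 0.43 ± 0.11 (SE), 1.34-fold higher (limma adjusted p = 0.416). Without any single array it lay between 0.37 and 0.49, and centring the arrays on their medians gave 0.41 and let the groups overlap.

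Its relative Stab1 read 6.09, 6.34, 6.34, 5.95 and 6.14 on control replicates 1 to 5 and 6.28, 6.52, 6.57, 6.58 and 6.13 on Jag1+/-Rfng+/- replicates 1 to 5. Lyve1, a hyaluronan receptor gene shared by sinusoids and lymphatics, read 6.61, 7.07, 6.46, 7.40 and 7.003 on control replicates 1 to 5 and 7.38, 7.22, 7.22, 7.52 and 6.52 on Jag1+/-Rfng+/- replicates 1 to 5. Both leaned higher, by 0.25 and 0.26, within overlapping groups (limma adjusted p = 0.748 and 0.858), and the low Lyve1 values were those of control replicates 1 and 3 and Jag1+/-Rfng+/- replicate 5. The Lyve1 difference was 0.15 without control replicate 3, 0.17 without Jag1+/-Rfng+/- replicate 4 and 0.42 without Jag1+/-Rfng+/- replicate 5.

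The other 8 sinusoidal genes differed by -0.18 to 0.19. Clec4g, a lectin gene of sinusoidal endothelium, averaged 7.62 ± 0.50 against 7.65 ± 0.38, and the Fc receptor gene Fcgr2b, which serves in clearing immune complexes, averaged 5.22 ± 0.36 against 5.40 ± 0.30. Oit3, a liver sinusoid marker, averaged 6.81 ± 0.42 against 6.995 ± 0.30, and Dnase1l3, which encodes a secreted nuclease, 6.47 ± 0.45 against 6.51 ± 0.21. For these 4 genes control replicate 3 gave the lowest or the second lowest control value. Gpr182, a receptor gene of the sinusoids, averaged 8.14 ± 0.21 against 8.27 ± 0.17, and Ehd3, which encodes an endocytic trafficking protein, 7.25 ± 0.44 against 7.07 ± 0.15. Flt4, which encodes the receptor for VEGF-C, averaged 5.95 ± 0.08 against 5.98 ± 0.17, with a 95% interval of the difference from -0.20 to 0.25. Gata4, the transcription factor gene that sets sinusoidal identity, averaged 5.82 ± 0.05 against 5.68 ± 0.50; 9 arrays lay within 5.63 to 6.15 and Jag1+/-Rfng+/- replicate 5 at 4.85. The limma adjusted p of these 8 genes lay between 0.878 and 0.988. Of 15 Kupffer cell genes, which mark the macrophages inside the sinusoids, 13 read higher in Jag1+/-Rfng+/- and 0 passed the adjusted threshold. At an unadjusted p under 0.05, 2 of the 15 read higher, against 2.98% of all genes, and 0 lower. The mean level of the Kupffer list ranged from 6.14 to 6.77 in controls and from 6.28 to 7.23 in Jag1+/-Rfng+/-. In this list 1 gene, Cd163, lay within the range of receptor genes. The part of Kupffer cells in the sinusoidal values was not tested. The hepatocyte list, 20 genes, ranged from 9.50 to 9.79 and from 9.48 to 9.75.

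**Figure D3:**
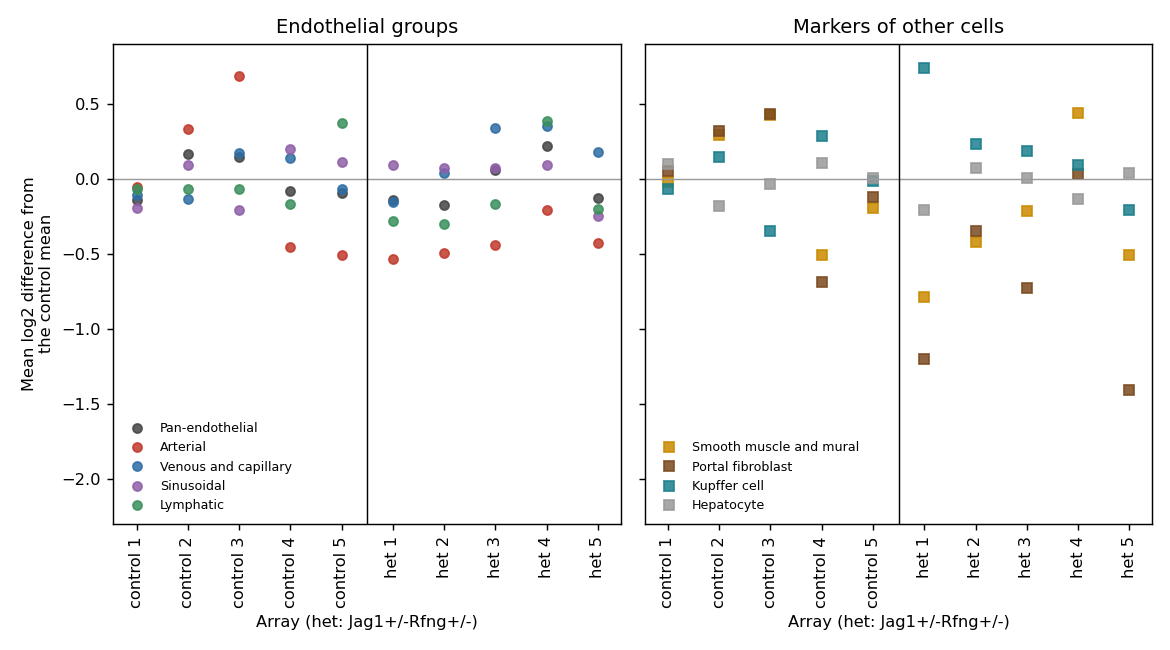
Mean difference from the control mean on each array (log2), for the 5 groups of endothelial genes (left, circles) and for 4 lists of other cell types (right, squares), with controls left and Jag1+/-Rfng+/- (het) right of the line in each panel. The arterial group is high on control replicates 2 and 3 only, where the smooth muscle and fibroblast lists are high too, and the general and sinusoidal groups stay between -0.25 and 0.22 throughout.

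The venous and capillary genes read higher in 4 of 5 cases, with a median difference of 0.15 and 0 genes at an unadjusted p under 0.05. Over all genes 51.5% read lower, and 6.76% had such a p in either direction. Plvap, which encodes the protein of the diaphragms over fenestrae, read 6.16, 5.89, 6.42, 6.23 and 5.92 on control replicates 1 to 5 and 6.35, 6.40, 7.30, 6.54 and 6.00 on Jag1+/-Rfng+/- replicates 1 to 5. Vwf, the von Willebrand factor gene of larger vessels and platelets, read 5.97, 6.18, 6.65, 5.85 and 5.43 on control replicates 1 to 5 and 5.30, 6.29, 6.58, 7.01 and 7.03 on Jag1+/-Rfng+/- replicates 1 to 5. Plvap stood out on Jag1+/-Rfng+/- replicate 3, and Vwf was high on Jag1+/-Rfng+/- replicates 4 and 5 and low on replicate 1. Their differences were 0.39 and 0.42 (limma adjusted p = 0.768 and 0.846). Without Jag1+/-Rfng+/- replicate 3 the Plvap difference was 0.20. The Vwf difference was 0.71 without Jag1+/-Rfng+/- replicate 1 and 0.28 without control replicate 5, Jag1+/-Rfng+/- replicate 4 or Jag1+/-Rfng+/- replicate 5. The 6 megakaryocyte and platelet genes measured, from cells that also make von Willebrand factor, averaged 0.57 and 0.58 above the control mean on Jag1+/-Rfng+/- replicates 4 and 5. They lay at 0.56 and 0.52 on control replicates 1 and 5, where Vwf read 5.97 and 5.43, and their part was not tested.

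Emcn, which encodes a sialomucin of veins and capillaries, read 5.16, 5.05, 5.47, 6.39 and 6.03 on control replicates 1 to 5 and 5.76, 5.27, 4.82, 5.96 and 4.86 on Jag1+/-Rfng+/- replicates 1 to 5. It was the venous gene that leaned lower, with a difference of -0.28 (limma adjusted p = 0.881), and control replicates 4 and 5, the lowest for Efnb2, were its highest arrays among controls. Without control replicate 4 the Emcn difference was -0.09, and it lay between -0.18 and -0.16 without control replicate 5, Jag1+/-Rfng+/- replicate 3 or Jag1+/-Rfng+/- replicate 5. It was -0.44 without Jag1+/-Rfng+/- replicate 4. Aqp1, a water channel gene of vessels, duct epithelium and red cells, read 7.25, 7.08, 7.13, 7.31 and 7.32 on control replicates 1 to 5 and 7.37, 7.09, 7.06, 7.10 and 8.22 on Jag1+/-Rfng+/- replicates 1 to 5. On 9 arrays it lay within 7.06 to 7.37, and on Jag1+/-Rfng+/- replicate 5 at 8.22. On that array the 5 erythroid genes measured averaged 2.43 above the control mean, against -0.68 to 0.66 on the other 9, and their part in the Aqp1 value was not tested. Without this array Aqp1 differed by -0.06. Ephb4, the ephrin-B2 receptor gene, averaged 6.38 ± 0.13 against 6.46 ± 0.55 (difference 0.08, 95% interval -0.40 to 0.57), and its highest value was that of Jag1+/-Rfng+/- replicate 3 at 7.30.

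**Figure D4:**
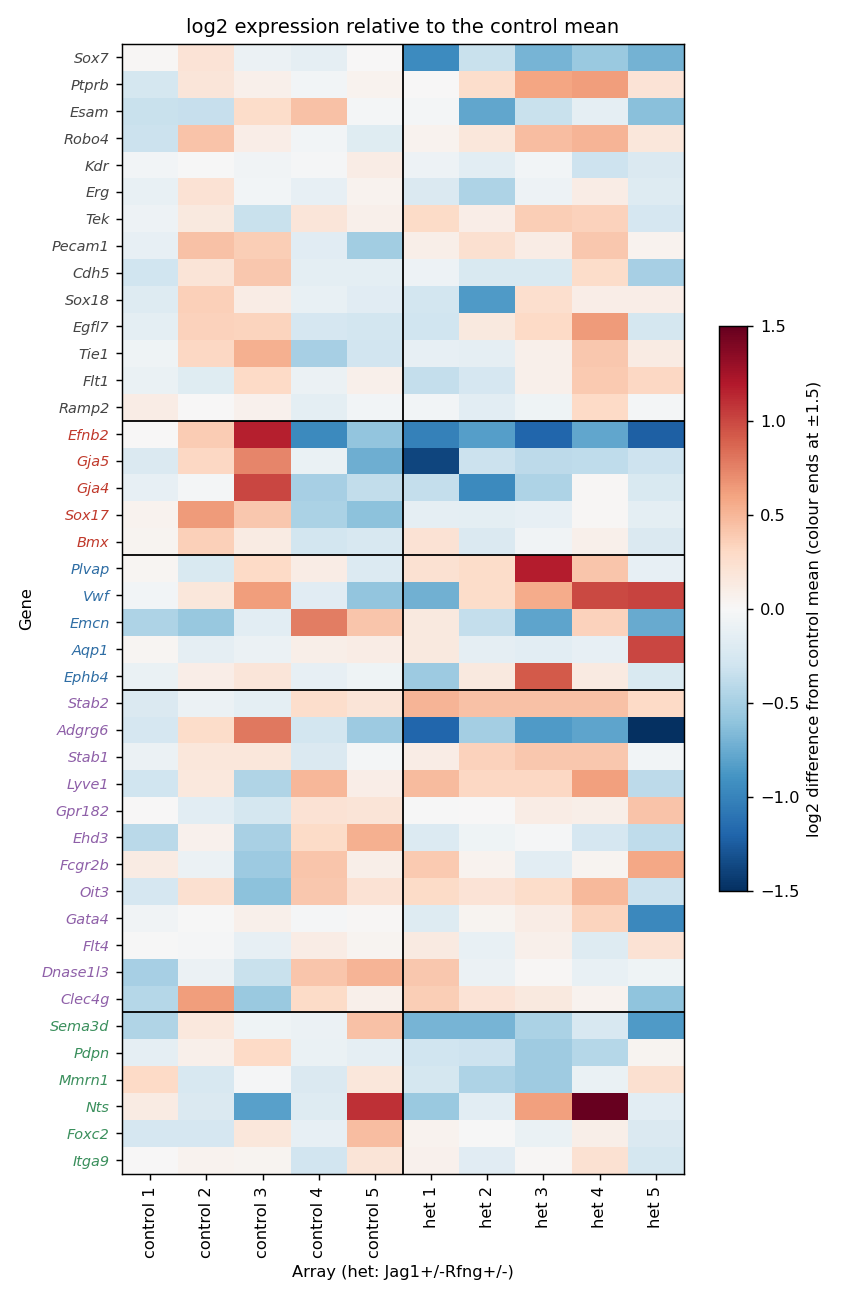
log2 expression of the 42 genes on the 10 arrays relative to each gene's control mean, with lines between the vessel groups and between controls and Jag1+/-Rfng+/- (het), and the colour scale ending at 1.5 on either side. Efnb2 and Adgrg6 are blue on all 5 Jag1+/-Rfng+/- arrays, Stab2 is red on them, and Aqp1, Gata4, Nts and Ephb4 each stand out most on 1 array.

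Of the 6 lymphatic markers 3 averaged within the range of receptor genes, and Nts lay in it on most arrays. Mmrn1, which encodes multimerin, made by lymphatic endothelium and platelets, read 3.48, 2.94, 3.15, 2.95 and 3.35 on control replicates 1 to 5 and 2.91, 2.71, 2.65, 3.07 and 3.42 on Jag1+/-Rfng+/- replicates 1 to 5. Pdpn, the podoplanin gene of lymphatic endothelium and of some epithelial and stromal cells, read 3.12, 3.33, 3.55, 3.15 and 3.12 on control replicates 1 to 5 and 2.96, 2.95, 2.73, 2.83 and 3.29 on Jag1+/-Rfng+/- replicates 1 to 5. Foxc2, a transcription factor gene of lymphatic valves, averaged 2.92 ± 0.31 against 2.88 ± 0.12. The means of these 3 genes over all arrays lay under the 95th percentile of receptor genes, 3.20, and their differences of -0.22, -0.30 and -0.04 (limma adjusted p = 0.844, 0.698 and 0.976) are differences between signals that may hold little of the transcript. Nts, which encodes neurotensin, a peptide of lymphatic endothelium and gut cells, read 3.11, 2.77, 2.17, 2.80 and 4.09 on control replicates 1 to 5 and 2.44, 2.82, 3.60, 5.77 and 2.84 on Jag1+/-Rfng+/- replicates 1 to 5. It reached 5.77 on Jag1+/-Rfng+/- replicate 4 and 4.09 on control replicate 5 and lay between 2.17 and 3.60 on the other 8 arrays, so that the mean difference of 0.51 rests on 1 array and was -0.06 without it.

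Sema3d, which encodes a secreted semaphorin that guides vessels, was the lymphatic gene with the lowest p and read above the receptor genes' 95th percentile on every array. It read 3.79, 4.39, 4.17, 4.15 and 4.68 on control replicates 1 to 5 and 3.54, 3.54, 3.77, 3.99 and 3.38 on Jag1+/-Rfng+/- replicates 1 to 5. Control replicate 1 at 3.79 and Jag1+/-Rfng+/- replicate 4 at 3.99 were the only overlap. The means were 4.24 ± 0.33 against 3.64 ± 0.24, a difference of -0.59 ± 0.17 (SE), 1.51-fold lower (limma adjusted p = 0.459), and -0.57 within the 7 arrays with the shared number (limma adjusted p = 0.824). Itga9, an integrin subunit gene needed for lymphatic valves and present in other cells, averaged 6.19 ± 0.18 against 6.17 ± 0.20 (difference -0.02). The group as a whole had a median difference of -0.13, with 5 of 6 genes lower, against 51.5% of all genes. Of the 6 genes 2, Sema3d and Pdpn, read lower at an unadjusted p under 0.05, against 3.79% of all genes. Without the 3 genes whose means lay under the receptor level the median was -0.02.

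Set side by side, the median differences were 0.02 for the genes of endothelium in general, -0.40 for arterial, 0.15 for venous and capillary, 0.08 for sinusoidal and -0.13 for lymphatic genes, and -0.01 for all genes. Within the 2 groups of arrays, the same medians varied from array to array with SDs of 0.15, 0.40, 0.17, 0.19 and 0.17 in that order. Leaving out single arrays moved the general median between -0.06 and 0.07, negative without control replicates 2, 4 or 5 or Jag1+/-Rfng+/- replicates 4 or 5. The sinusoidal median was 0.01 without control replicate 3 and 0.13, 0.16 and 0.17 without control replicates 2, 4 and 5. The venous median was 0.24 without Jag1+/-Rfng+/- replicate 1, and the lymphatic median -0.08 without control replicate 5. Differences between the groups of genes were not tested.

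Genes that act on the same vessels were read from 7 further lists, of which 0 genes passed the adjusted threshold. Among 24 vascular ligand genes measured, 11 read lower and 13 higher, and 3 and 2 of them had an unadjusted p under 0.05, against 3.79% and 2.98% of all genes. Angpt1, which encodes the ligand of the receptor made by Tek, averaged 4.14 ± 0.20 against 3.53 ± 0.29 with no overlap (limma adjusted p = 0.361), 1.52-fold lower. On Jag1+/-Rfng+/- replicate 1 Angpt1 read 3.11, under the receptor level of 3.20. Cxcl12, a chemokine gene of stroma and endothelium, averaged 9.34 ± 0.04 against 8.84 ± 0.43, also with no overlap (limma adjusted p = 0.609). These were 2 of the 24 ligand genes, and 0.766% of all genes were lower with no overlap. Sema3c, another semaphorin gene, averaged 4.16 ± 0.51 against 3.41 ± 0.19. Gdf2, which encodes the circulating endothelial ligand BMP9 and is made in the liver, averaged 5.33 ± 0.43 against 6.22 ± 0.27, 1.85-fold higher (limma adjusted p = 0.317). Angptl4, a secreted inhibitor of lipoprotein lipase, averaged 5.91 ± 0.26 against 6.56 ± 0.34, 1.58-fold higher (limma adjusted p = 0.423). Cxcl12 and Sema3c, and Slco2a1 and Hey2 below, were named after their values were seen.

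Of 20 vascular receptor genes 12 read lower, 2 of them at an unadjusted p under 0.05, against 51.5% and 3.79% of all genes. Nrp1, which encodes a coreceptor of VEGF and semaphorins, averaged 6.73 ± 0.15 against 6.13 ± 0.46 with no overlap (limma adjusted p = 0.564). It was the 1 receptor gene lower with no overlap, against 0.766% of all genes. Ackr3, a scavenging receptor gene for the Cxcl12 product, averaged 5.05 ± 0.12 against 4.54 ± 0.51. Aplnr, the apelin receptor gene of veins, averaged 4.19 ± 0.22 against 4.72 ± 0.64. Nrp1 was 1.52-fold lower, Ackr3 1.42-fold lower and Aplnr 1.45-fold higher.

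Of 23 further genes of endothelium in general 14 read lower, with a median of -0.04 and 2 genes in each direction at an unadjusted p under 0.05, against 3.79% lower and 2.98% higher over all genes. Cd34 and Ldb2 differed by -0.78 and -0.62, and Gngt2 and the prostaglandin transporter gene Slco2a1 by 0.50 and 0.39. Cd34 is also a fibroblast marker and is in the portal fibroblast list.

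Of 12 further arterial genes 10 read lower, with a median of -0.30, and 4 had an unadjusted p under 0.05, all lower. Over all genes 51.5% read lower, and 3.79% did so at an unadjusted p under 0.05. The 4 genes were the Notch target genes Hey1 (-0.75), Heyl (-0.92) and Hey2 (-0.45) and the transcription factor gene Mecom (-0.68), with limma adjusted p between 0.564 and 0.628. The list's mean relative to controls was 0.31 on control replicate 3, -0.45 on control replicate 4, -0.04 on Jag1+/-Rfng+/- replicate 4 and -0.73 on Jag1+/-Rfng+/- replicate 1. Heyl is also known in smooth muscle. Of the 12 genes 3, Gkn3, Stmn2 and Tmem100, averaged within the range of receptor genes, and Gkn3 and Stmn2 are among the 10 lower. Hey2 averaged 3.26 on the Jag1+/-Rfng+/- arrays, close to the receptor level of 3.20.

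Of 9 further venous genes 6 read higher, and Selp, the P-selectin gene of endothelium and platelets, differed by 0.83 (limma adjusted p = 0.609). Nr2f2, the transcription factor gene of venous identity, differed by -0.50, and Lepr by 0.64. Of 16 further sinusoidal genes 11 read higher with a median of 0.05, among them Fcna, a ficolin gene, at 0.50 and the heparanase gene Hpse at 0.51, while Clec2d differed by -0.56. Of 7 further genes of the lymphatic list 5 read lower, led by Thy1 (-1.15), which is also a fibroblast marker, and Nrp2 and Fgl2 differed by 0.30 and -0.31. Over all genes 51.5% read lower. In the ligand list Apln, Bmp6, Pgf and Sema3a averaged within the range of receptor genes. So did Tnfrsf10b, Tal1, Ackr1 and Cd209b, of the further receptor, general, venous and sinusoidal lists. In none of these lists was the choice of genes independent of earlier results on these arrays.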

How the data were processed

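The values analysed were log2 expression per probe set for 33649 probe sets on 10 arrays, as deposited by the authors. RMA and Partek 6.6 are listed, without saying what each did, per the submitters' processing notes. No source used here gives the genome build behind the values. The deposited log2 values were used without further scaling and came without detection calls. Of the probe sets 23521 carried 1 gene symbol, 1814 several and 8314 none, and 23328 of the first were matched to RefSeq through their Entrez identifiers. Where a gene had several probe sets (1082 genes) the brightest on average was kept, which gave 22180 genes. The number of arrays limits the precision, and no files were left out.

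The group difference was fitted over all genes in R 4.3.3 with limma 3.58.1, with Benjamini-Hochberg adjustment and a threshold of 0.05. An exact permutation p planned for genes whose groups do not overlap is not printed, since that pattern fixes it. The code was tested on simulated data. No array was identical to another. The members and all lists were chosen with earlier results of these data known, and the division into venous and sinusoidal genes was made for this work, Adgrg6 being placed by its position in the list. Values on every array are given for the 4 genes of lowest unadjusted p in each vessel group, for Pecam1, Cdh5, Gja5, Vwf, Stab2, Lyve1 and Mmrn1, and for members whose groups do not overlap, and of each further list the 3 genes of lowest p are named. Alternatives were leaving out single arrays, a replicate block, the arrays with a shared number, quantile normalization, median centring, array weights, a trended robust fit, means of probe sets and a filter at the receptor level.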

Additional observations from a re-analysis of the deposited data

Results flagged for a closer look

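In 6 of 84 tests, each of 1 gene in 1 group of 5 arrays, a single array lay far from the other 4, where chance gives about 1 in 20. Kdr read 7.004 on control replicate 5, against 6.84 to 6.88 on the other controls. Gja5 read 4.211 on Jag1+/-Rfng+/- replicate 1, against 5.20 to 5.28 on the others, and Dnase1l3 read 6.873 on the same array, against 6.36 to 6.49. Sox17 read 5.074 on Jag1+/-Rfng+/- replicate 4, against 4.91 to 4.93. Aqp1 read 8.225 on Jag1+/-Rfng+/- replicate 5, against 7.06 to 7.37, and Gpr182 read 8.569 there, against 8.14 to 8.26. For Kdr, Sox17, Dnase1l3 and Gpr182 the gap was smaller than for Gja5 and Aqp1 and came beside a tight spread of the other arrays.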

How the results depend on the processing

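Over 19 alternatives 0 of the 42 genes passed an adjusted p of 0.05 in limma, the lowest being 0.107 for Sox7 without Jag1+/-Rfng+/- replicate 2, and 25 kept their sign in every one. The replicate numbers did not pair the samples (correlations of deviations -0.234 to 0.0611), and with the replicate block 6 members read lower and 3 higher at an unadjusted p under 0.05, against 3.75% and 2.84% of all genes. Leaving out single arrays gave 1 to 5 members higher at an unadjusted p under 0.05, against 2.45% to 3.17% of all genes. Leaving them out also gave 1 to 3 members lower and 1 to 2 higher with no overlap, against 1.06% to 1.46% and 1.01% to 1.18%. Differences that turned sign in this way were, apart from Nts, under 0.2 in size in the full data and ranged from -0.0536 to 0.203 for Tie1, -0.108 to 0.191 for Clec4g, -0.0922 to 0.161 for Dnase1l3, -0.055 to 0.132 for Flt1, -0.263 to 0.0521 for Sox17, -0.104 to 0.052 for Bmx, -0.0229 to 0.0791 for Flt4, -0.101 to 0.0774 for Foxc2, -0.0721 to 0.0438 for Ramp2, -0.0934 to 0.038 for Itga9, -0.233 to 0.0419 for Sox18, -0.126 to 0.242 for Ephb4, -0.027 to 0.206 for Egfl7, -0.0636 to 0.779 for Nts, -0.0647 to 0.226 for Aqp1 and -0.25 to 0.0736 for Gata4.

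The 7 arrays with a shared number gave 4 members lower and 3 higher with no overlap, against 3.83% and 3.17% of all genes. Without Jag1+/-Rfng+/- replicate 5 they gave 5 and 4, against 5.87% and 5.31%. The first set turned Pecam1 to -0.01348, Clec4g to -0.1713, Dnase1l3 to -0.05579, Foxc2 to 0.008921 and Itga9 to 0.02037. The second turned Aqp1 to -0.09152, Dnase1l3 to -0.05431, Flt4 to -0.06452, Gata4 to 0.1484, Foxc2 to 0.06309 and Itga9 to 0.09215, and gave a venous median of 0.3448. Quantile normalization turned Itga9 to 0.00902. Median centring turned Ramp2 to -0.01081 and left 0 members higher with no overlap, against 0.478% of all genes. Array weights turned Flt4 to -0.01244, Gata4 to 0.01467 and Foxc2 to 0.0009311 and gave 4 members higher at an unadjusted p under 0.05, against 3.39% of all genes. The cause of these shifts was not tested. With no detection call, signals near the receptor level cannot be told from absence, and tract capture mixes vessel, duct, stroma and edge hepatocytes.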
